A study of Mus musculus with 14 samples.

Results

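The MYC, MAX and MXD network is a set of basic helix-loop-helix leucine zipper transcription factors that share 1 obligate partner, MAX. All 10 genes named for this account (Myc, Mycn, Mycl1, Max, Mxd1, Mxd3, Mxd4, Mxi1, Mnt and Mga) were found by exact symbol among the 23284 gene symbols of the count tables, and all 10 passed the filter on low counts, which left 12393 genes for testing. The RNA-seq compared forelimb buds of NMRI mouse embryos in 4 groups. Mutants carried the genotype Smad4 Δ/Δc PrxCreT/+ (n=4 at E10.0 with 30 somites, n=4 at E10.5 with 35 somites), and the controls, called wild type here, were Smad4+/+ PrxCreT/+ (n=3 at each stage), so that the Cre transgene was present in every embryo. In mutants, 1 Smad4 allele was deleted in all cells and the other was conditional, removed by a Cre driven by Prrx1 limb enhancer sequences, which acts in the mesenchyme and not in the overlying ectoderm. Each replicate was the pair of forelimb buds of 1 embryo, and each sample had between 34066930 and 61691258 reads counted on genes.

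MAX dimers bind DNA at E-boxes, of which CACGTG is the best known form. The MYC class (Myc, Mycn and Mycl1, the latter now called Mycl) pairs with MAX to activate genes for growth, ribosome production and metabolism. MXD1, MXD3, MXD4, MXI1 and MNT pair with MAX to repress such genes by recruiting the SIN3 and HDAC corepressors, and MGA carries MAX into a variant Polycomb repressive complex. In the limb bud mesenchyme, Mycn is known as a factor required for the normal expansion of progenitors and for digit formation.

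The E-box was searched for in the promoters because it is the sequence that the proteins of all 10 genes meet at. RefSeq promoter windows of the GRCm38.p6 build, from 250 bases before to 50 bases after the transcription start, were listed for 9 of the 10 genes, and none for Myc. The motif CACGTG, which reads the same on both strands, was found in 3 of these 9 genes (Mxd4, Mnt and Max), against 1165 of the 9789 matched genes among all those tested (11.9%) and 2349 of the 32851 windows of the whole table (7.15%). It began 219 bases before the start of Mxd4, 123 before that of Mnt and 3 before that of Max. The stretches that hold it are shown for these 3 genes and for 2 genes of ribosome production, Nop2 and Imp4. Each has the motif in capitals and is read 5′ to 3′ on the strand of its gene. Nop2 and Imp4 fell from E10.0 to E10.5 in wild type and were picked after their values were seen. They come from the 7 ribosome production genes with the motif, not all of which were called lower.
Mxd4: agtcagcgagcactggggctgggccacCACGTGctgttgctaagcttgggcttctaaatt
Mnt: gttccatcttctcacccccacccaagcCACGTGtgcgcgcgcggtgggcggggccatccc
Max: ctaccccggcgcggtgagcccggtCACGTG
Nop2: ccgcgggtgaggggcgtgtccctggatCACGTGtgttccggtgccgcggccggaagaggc
Imp4: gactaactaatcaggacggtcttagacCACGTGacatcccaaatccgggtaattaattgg
In GRCm38.p6 these lie at chr5:34187897-34187956 (minus strand, Mxd4), chr11:74830774-74830833 (plus strand, Mnt), chr12:76962246-76962275 (minus strand, Max), chr6:125131796-125131855 (plus strand, Nop2) and chr1:34439681-34439740 (plus strand, Imp4). A match describes the letters of the window only.

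Smad4 levels separated the samples as their labels do. Smad4 was 161 ± 8.43 CPM (TMM-normalized read counts scaled to a common library size; SD, n=3) in wild type and 39.8 ± 4.19 (SD, n=4) in mutants at E10.0. At E10.5 it was 166 ± 2.27 and 37.0 ± 3.43. Mutant replicates 4 and 5 of both stages stood apart: the ribosomal RNA precursor Rn45s took up 1.72% to 8.05% of their reads, against 0.151% to 0.478% in the 10 other samples. As all 4 were mutants, whatever set them apart is mixed with genotype in the fits that include them. The remaining mutants had shares of 0.151% to 0.456%, and values without these 4 samples are therefore given beside the results. The 6 markers of limb bud mesenchyme (Prrx1, Prrx2, Tbx5, Msx1, Twist1 and Lhx2) were detected in every group. Their summed level was lower in mutants, at 896 to 1032 CPM against 1134 to 1301 at E10.0 and at 999 to 1089 against 1289 to 1347 at E10.5. The study reports Prrx2 and Lhx2 as SMAD4 target genes with reduced expression in mutants, so these markers do not measure mesenchyme apart from genotype. The 9 markers of ectoderm and apical ridge summed to 266 to 343 CPM in wild type and 211 to 322 in mutants at E10.0, and to 247 to 253 and 174 to 247 at E10.5. Endothelial markers (6 genes) summed to 267 to 344 CPM over all groups and muscle precursor markers (5 genes) to 74.8 to 109. Erythroid markers (6 genes, Hba-a1 at 0) summed to 2650 to 5091 CPM, and macrophage markers (6 genes) rose with stage, from 1.66 to 4.37 to 8.07 to 9.10 CPM in wild type and from 4.58 to 5.90 to 9.37 to 15.2 CPM in mutants. The 4 mesothelial markers summed to 12.9 to 24.2 CPM in mutants at E10.0 and to 4.93 to 11.6 in the 3 other groups, and the 4 neural crest markers, with Foxd3 at 0 in wild type at E10.0, to 10.9 to 15.99 in all groups. In such bulk samples, fewer cells of a type and less RNA per cell cannot be told apart, and the part of these markers in the results on the network was not tested.

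Per kilobase of exon, Mycn had the highest level of the 10 genes in wild type at E10.0, with 43.1 ± 2.14 RPKM (SD, n=3). It was followed by Max with 35.6 ± 2.60 RPKM, and by Mycl1 and Myc, whose samples overlapped at 14.7 ± 0.798 and 13.5 ± 1.63 RPKM. Mga (10.4 ± 2.15), Mnt (7.95 ± 0.670) and Mxi1 (7.52 ± 0.274) came next, each overlapping its neighbour in this order. The lowest levels were those of Mxd1 (3.50 ± 0.223 RPKM), Mxd4 (2.96 ± 0.184) and Mxd3 (2.65 ± 0.322), of which Mxd4 and Mxd3 overlapped. In mutants at E10.5, Max was highest with 31.6 ± 0.314 RPKM (SD, n=4), above Mycn with 23.7 ± 1.80 RPKM. In mm9, the build of the counts, the genes lie on 9 chromosomes, with Max (78038256 to 78063235) and Mycn (12942902 to 12948720) both on the minus strand of chromosome 12. The counting ignored strand, and an exon of Mxd3 overlaps the opposite gene Prelid1 over 104 bases (5% of its exon length) and Mxi1 overlaps Gm10197 over 194 bases (3.45%), and how far this affected their levels was not tested.

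**Figure D1:**
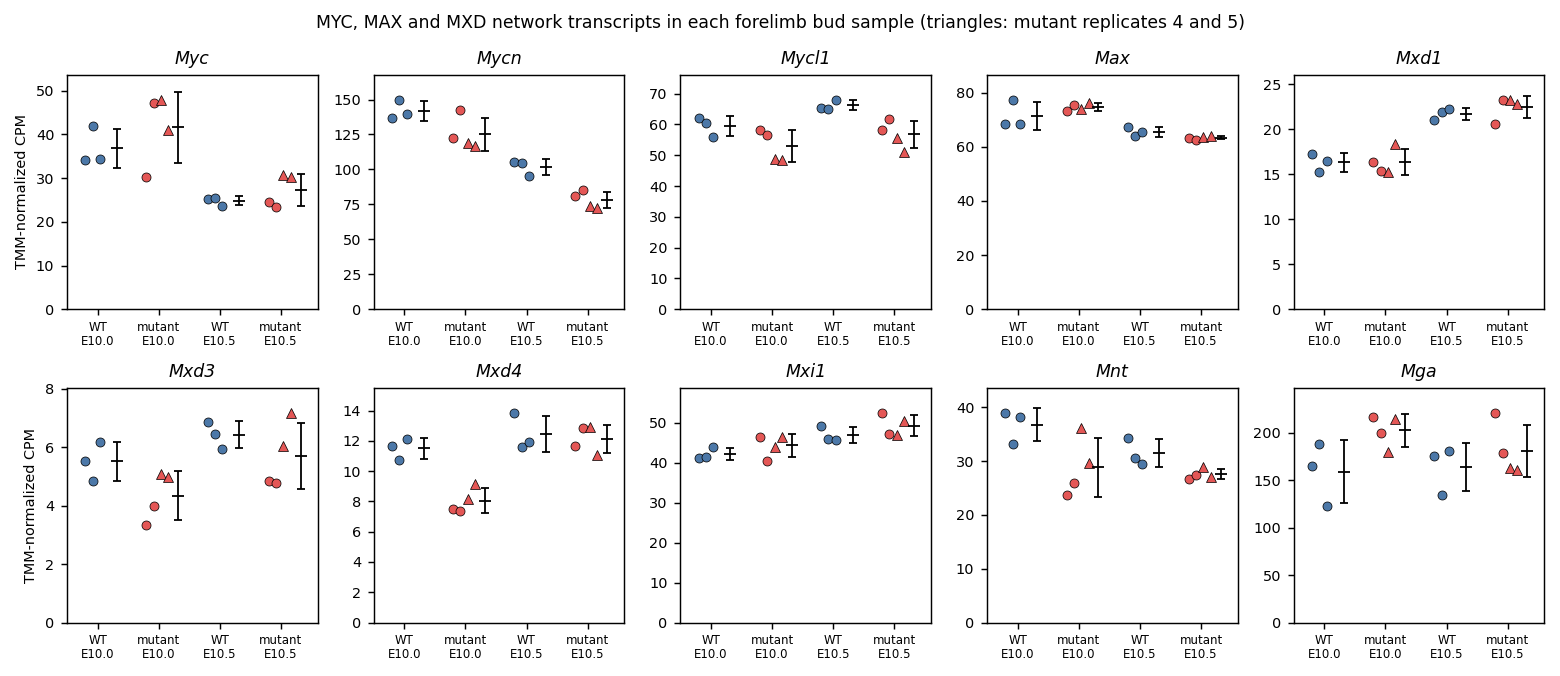
TMM-normalized CPM of each of the 10 genes (linear axes from 0) in the 4 groups, with 1 point per embryo, triangles for mutant replicates 4 and 5, and the group mean ± SD beside the points. Mycn was 95.5 to 105 CPM in wild type and 72.6 to 85.0 CPM in mutants at E10.5, and Mxd4 was 10.7 to 12.1 CPM in wild type and 7.39 to 9.15 CPM in mutants at E10.0.

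The first question was how the network changed during early outgrowth, from E10.0 to E10.5, in wild-type forelimb buds. Myc and Mycn fell and Mxd1 rose. A gene was called differentially expressed (DEG) at a false discovery rate (FDR) of at most 0.1 in the exact test of edgeR, after Benjamini-Hochberg adjustment, with a fold change of at least 1.2. Among the 10 genes, 1 was called higher and 2 lower, and among all genes tested 5.39% were called higher and 4.74% lower.

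Mycn, the most abundant MYC-class transcript, was 137, 150 and 139 CPM in the wild-type embryos at E10.0 and 105, 104 and 95.5 CPM at E10.5. All E10.5 embryos were below all E10.0 embryos. The log2 fold change was -0.48 (SE 0.0612, adjusted p = 5.59e-05 by edgeR's exact test), and Mycn stayed called when any 1 of the 14 samples was left out. Myc, the founding member of the class, was 34.2, 41.9 and 34.3 CPM at E10.0 and 25.3, 25.5 and 23.7 CPM at E10.5, again without overlap. Its log2 fold change was -0.57 (SE 0.102, adjusted p = 0.00581 by edgeR's exact test). Without wild-type E10.0 replicate 2, the embryo with the highest Myc, the change was -0.47 and was no longer called (adjusted p = 0.123, edgeR's exact test).

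Mxd1, a MAX partner that competes with MYC and is known to rise as cells stop dividing, was 17.3, 15.2 and 16.5 CPM at E10.0 and 21.0, 21.9 and 22.3 CPM at E10.5. The groups did not overlap, and the log2 fold change was 0.41 (SE 0.0585, adjusted p = 0.00639 by edgeR's exact test). Without wild-type E10.0 replicate 2 it was 0.36 and not called (adjusted p = 0.107, edgeR's exact test). The 7 other genes were not called in wild type, although Mycl1, Max and Mxi1 did not overlap between the stages either. The share of all genes without overlap is not reported here. Mycl1 had a log2 fold change of 0.15 (SE 0.0498), of opposite sign to those of Myc and Mycn, and Max one of -0.12 (SE 0.0634). The values were 0.22 for Mxd3, 0.11 for Mxd4, 0.15 for Mxi1, -0.23 for Mnt and 0.04 for Mga, with adjusted p between 0.318 and 0.922 (edgeR's exact test).

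In mutant forelimb buds, the same comparison of stages called 3 of the 10 genes higher and 2 lower, against 10.8% and 8.4% of all genes. Without mutant replicates 4 and 5 it called 2 higher and 2 lower, against 9.72% and 7.79%. Mycn was 123, 142, 119 and 117 CPM at E10.0 and 81.2, 85.0, 73.8 and 72.6 CPM at E10.5, with no overlap. Its log2 fold change was -0.68 (SE 0.0852, adjusted p = 1.82e-13 by edgeR's exact test) and -0.67 without replicates 4 and 5. Myc was 30.3, 47.2, 47.9 and 41.0 CPM at E10.0 and 24.6, 23.5, 30.6 and 30.3 CPM at E10.5. Here the groups overlapped, as E10.0 replicate 1 lay just under the highest E10.5 embryo. Its log2 fold change was -0.61 (SE 0.181, adjusted p = 8.38e-05 by edgeR's exact test), and it stayed called with any 1 sample left out.

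Mxd1 and Mxd4, both members of the MXD class, rose in mutants. Mxd1 was 16.4, 15.4, 15.3 and 18.3 CPM at E10.0 and 20.6, 23.3, 23.2 and 22.7 CPM at E10.5 (log2 fold change 0.46, SE 0.0730, adjusted p = 4.77e-05 by edgeR's exact test). Mxd4 was 7.51, 7.39, 8.17 and 9.15 CPM at E10.0 and 11.7, 12.8, 12.9 and 11.04 CPM at E10.5 (0.59, SE 0.0871, adjusted p = 1.19e-05 by edgeR's exact test). Neither gene overlapped between the stages, and without replicates 4 and 5 the changes were 0.47 and 0.72. Mxd3, which is known for its expression in proliferating cells, was at the margin. It was 3.32, 3.98, 5.08 and 4.97 CPM at E10.0 and 4.84, 4.76, 6.03 and 7.16 CPM at E10.5, and the groups overlapped. Its log2 fold change of 0.39 (SE 0.192, adjusted p = 0.0950 by edgeR's exact test) was called in 4 of the 14 fits with 1 sample left out, and not without replicates 4 and 5 (adjusted p = 0.176, edgeR's exact test).

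Max itself was 73.3, 75.5, 73.8 and 76.3 CPM in mutants at E10.0 and 63.1, 62.6, 63.7 and 64.0 CPM at E10.5. The groups were far apart relative to their spread, but the change was small. The log2 fold change of -0.24 (SE 0.0152) passed the FDR (adjusted p = 0.00953 by edgeR's exact test) and missed the minimum fold change of 1.2, so that Max was not called. Mycl1 (0.10), Mxi1 (0.15), Mnt (-0.06) and Mga (-0.16) were not called either, although Mxi1 did not overlap between the stages. The value for Mnt turned to 0.13 without replicates 4 and 5.

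Whether the changes with stage differed between genotypes was tested directly as an interaction term, with edgeR's quasi-likelihood test. None of the 10 genes passed an FDR of 0.1, at which 0.0565% of all genes were called higher and 0.129% lower (without replicates 4 and 5, 0.00814% and 0.0407%). DESeq2 called none of the 10 either, and 1 gene, Mxd4, had an unadjusted p under 0.05. The change of Mxd4 with stage was larger in mutants by 0.48 on the log2 scale (SE 0.128, adjusted p = 0.459 by edgeR's quasi-likelihood test). For Mycn the difference was -0.20 (SE 0.105, adjusted p = 0.950) and for Myc -0.04 (SE 0.208, adjusted p = 0.985), both by edgeR's quasi-likelihood test. The comparisons of mutants with wild type that follow use the same embryos as the comparisons of stages.

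The next question was how the network differed between mutants and wild type at each stage. At E10.0, 2 of the 10 genes, the repressors Mxd4 and Mnt, were called lower in mutants and none was called higher, against 3.28% and 3.33% of all genes. Without mutant replicates 4 and 5, 3 were lower (Mxd3, Mxd4 and Mnt) and 1 higher (Mga), against 10.2% and 6.23% of all genes. Mxd4 was 11.7, 10.7 and 12.1 CPM in wild type and 7.51, 7.39, 8.17 and 9.15 CPM in mutants. Every mutant lay below every wild-type embryo. The log2 fold change was -0.52 (SE 0.0854, adjusted p = 0.00252 by edgeR's exact test), a fold of 0.699, and Mxd4 stayed called in all 14 fits with 1 sample left out. Without replicates 4 and 5 the change was -0.61. The study reports Mxd4, from these RNA-seq data and its ChIP-seq, as a SMAD4 target gene with reduced expression in mutants at E10.0. It excepts Mxd4 from the target genes shared with E10.5.

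Mnt, the broadly expressed antagonist of MYC, was 38.9, 33.2 and 38.2 CPM in wild type at E10.0 and 23.7, 26.0, 36.1 and 29.6 CPM in mutants. Mutant replicate 4 lay among the wild-type embryos and the other 3 below them. The log2 fold change was -0.35 (SE 0.149, adjusted p = 0.0731 by edgeR's exact test), and it was -0.55 without replicates 4 and 5 (adjusted p = 0.000102, edgeR's exact test). The call depended on the test and on single samples. The quasi-likelihood test gave an adjusted p of 0.112 (edgeR), and the call was lost without any 1 of mutant E10.0 replicates 1 (-0.26), 3 (-0.31) and 5 (-0.37), wild-type E10.0 replicates 1 (-0.31) and 3 (-0.32) and mutant E10.5 replicate 2 (-0.35).

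Mga, the scaffold of its Polycomb complex, was 166, 188 and 123 CPM in wild type at E10.0 and 217, 200, 180 and 214 CPM in mutants. Only mutant replicate 4 fell within the wild-type range, and the wild-type embryos varied widely. The log2 fold change was 0.35 (SE 0.191, adjusted p = 0.139 by edgeR's exact test) and was not called. It was 0.41 and called without replicates 4 and 5 (adjusted p = 0.0543, edgeR's exact test), and also when mutant E10.0 replicate 4 (0.40), wild-type E10.0 replicate 2 (0.49), mutant E10.5 replicate 1 (0.36) or wild-type E10.5 replicate 2 (0.36) was left out. Mxd3 was 5.54, 4.83 and 6.16 CPM in wild type and 3.32, 3.98, 5.08 and 4.97 CPM in mutants, where the 2 lowest embryos were replicates 1 and 3. Its change was -0.35 (SE 0.168, adjusted p = 0.296 by edgeR's exact test) and -0.58 without replicates 4 and 5 (adjusted p = 0.0233, edgeR's exact test).

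The activating side of the network was not called at E10.0. Mycn had a log2 fold change of -0.18 (SE 0.0773, adjusted p = 0.263 by edgeR's exact test), and Myc one of 0.18 (SE 0.18, adjusted p = 0.561). Without replicates 4 and 5 the changes were -0.08 for Mycn and 0.09 for Myc. Mycl1, of which wild-type embryos had 62.0, 60.6 and 55.9 CPM, was 58.1 and 56.6 CPM in mutant replicates 1 and 3 and 48.7 and 48.6 CPM in replicates 4 and 5. Its change was -0.17 with all mutants and -0.04 without replicates 4 and 5. Max (0.07), Mxi1 (0.07) and Mxd1 (within 0.001 of 0) were not called.

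At E10.5, Mycn was the 1 gene of the network called lower in mutants and none was called higher, against 1.54% and 2.19% of all genes. The counts were the same without replicates 4 and 5, against 1.68% and 2.6%. Mycn was 105, 104 and 95.5 CPM in wild type and 81.2, 85.0, 73.8 and 72.6 CPM in mutants. The groups did not overlap, and mutant replicates 4 and 5 were the lowest samples. The log2 fold change was -0.38 (SE 0.0710, adjusted p = 0.00200 by edgeR's exact test), a fold of 0.769, and it was called in all 14 fits with 1 sample left out. Without replicates 4 and 5 it was -0.28 (adjusted p = 0.0569, edgeR's exact test), and then not called by the quasi-likelihood test (adjusted p = 0.121, edgeR), a combination chosen after seeing the data. The mesenchyme markers, which include SMAD4 target genes, were lower in the same embryos. At E10.5, 4 of 6 were called (3 by the quasi-likelihood test), with a median log2 fold change of -0.45. At E10.0, 5 of 6 were called (3 by the quasi-likelihood test), with a median of -0.41. Their part in the change of Mycn was not tested.

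Mycl1 was 65.3, 65.2 and 68.0 CPM in wild type at E10.5 and 58.2, 61.9, 55.7 and 51.2 CPM in mutants. The groups did not overlap, but the change of -0.22 (SE 0.0608, adjusted p = 0.294 by edgeR's exact test) was not called, and it was -0.13 without replicates 4 and 5. Myc was 25.3, 25.5 and 23.7 CPM in wild type and 24.6, 23.5, 30.6 and 30.3 CPM in mutants. The 2 high embryos were replicates 4 and 5, and the change was 0.13 with them and -0.03 without them, not called in either. Mnt, with 34.4, 30.6 and 29.5 CPM in wild type and 26.7, 27.5, 28.9 and 27.1 CPM in mutants, did not overlap and was not called (-0.19, SE 0.0707, adjusted p = 0.687 by edgeR's exact test). Mxd4 had 13.8, 11.6 and 11.9 CPM in wild type and 11.7, 12.8, 12.9 and 11.04 CPM in mutants at E10.5. Here the mutants lay within or near the wild-type range (-0.04, SE 0.0947). Max (-0.05), Mxd1 (0.05), Mxd3 (-0.18), Mxi1 (0.07) and Mga (0.15) were not called.

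**Figure D2:**
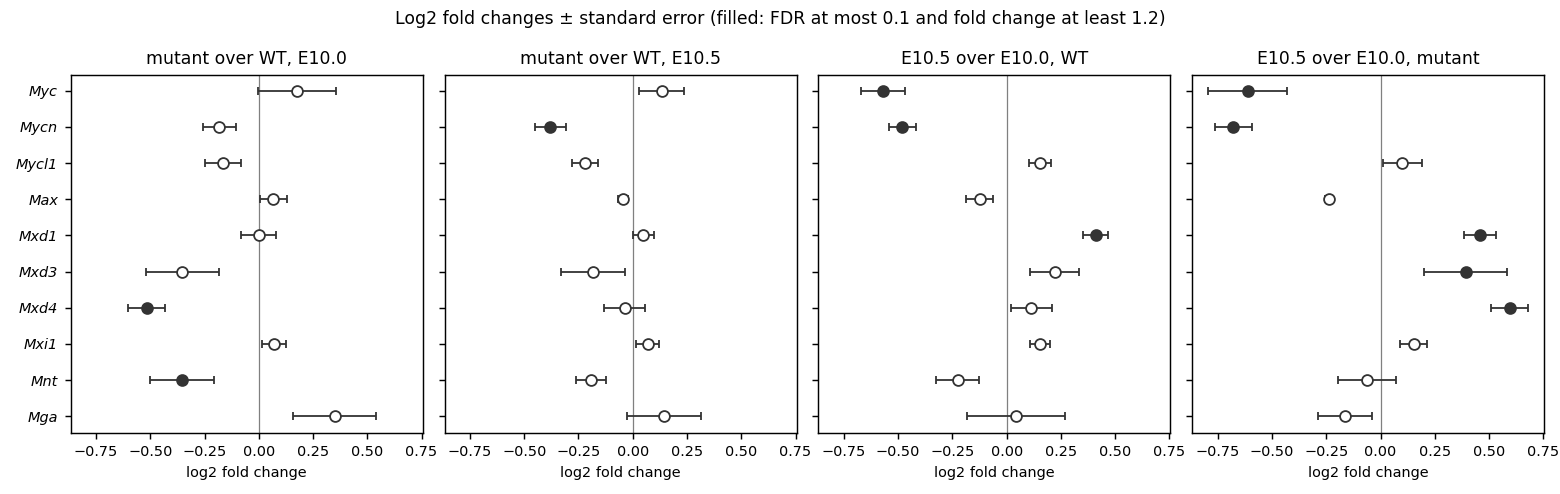
Log2 fold changes of the 10 genes (points, horizontal axis) with their standard errors (bars) in the 4 comparisons, with filled points for called genes. Mycn was called in 3 comparisons (-0.48 and -0.68 with stage, -0.38 with genotype at E10.5), and Mxd4 in 2, at -0.52 with genotype at E10.0 and 0.59 with stage in mutants.

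Because the MXD, MNT and MGA proteins compete with the MYC class for MAX, the transcripts of MAX partners were also expressed as shares of their summed RPKM in each embryo. At E10.0, the MYC class made up 65.9%, 68.4% and 67.1% in wild type and 64.5%, 69.4%, 65.2% and 62.6% in mutants, and these ranges overlapped. At E10.5, it made up 59.6%, 62.5% and 59.6% in wild type and 55.1%, 57.7%, 56.6% and 55.7% in mutants, where every mutant lay below every wild-type embryo. The MXD class took 15.7% ± 1.45 (SD, n=3) of the early and 20.7% ± 0.140 of the later wild-type buds. In mutants its share was 15.4% ± 1.52 (SD, n=4) in the early and 22.9% ± 1.24 in the later buds. Mycn contributed 60.4% ± 0.981 of the MYC class in wild type and 57.2% ± 1.92 in mutants at E10.0. The corresponding values at E10.5 were 54.8% ± 1.40 and 49.6% ± 2.30. Mnt made up 5.22% to 8.05% of the partners and Mga 7.84% to 16.5% over all embryos. These shares are of transcripts, not of proteins, and rest on the exon lengths of the mm9 annotation.

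**Figure D3:**
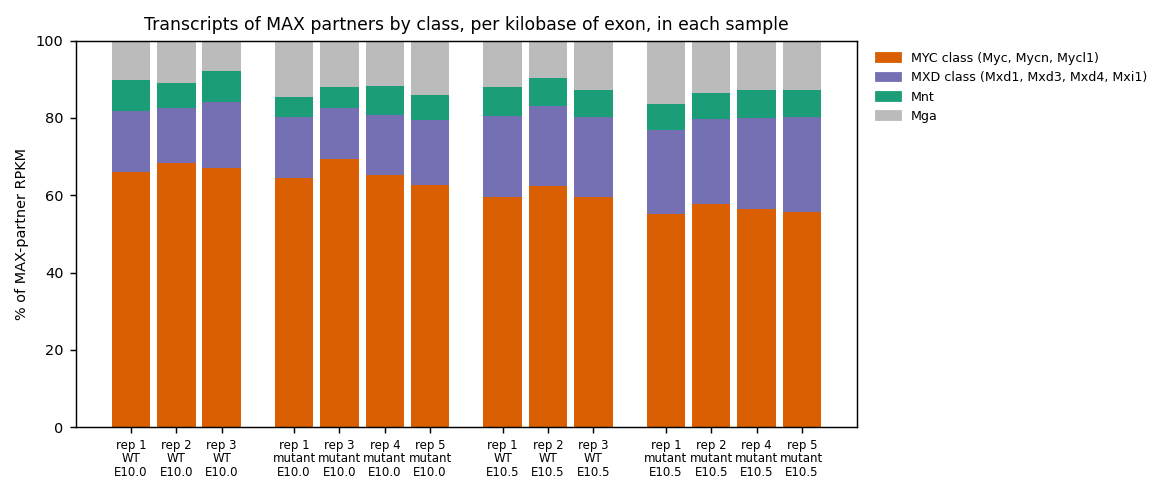
Share of the summed RPKM of MAX partners (vertical axis, % from 0 to 100) taken by the MYC class, the MXD class, Mnt and Mga, with 1 bar per embryo. The MYC class ran from 62.6% to 69.4% in the E10.0 embryos and from 55.1% to 62.5% in the E10.5 embryos.

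The genes that MYC is known to activate were described as 2 lists, without a test of the lists. Of 33 nucleolar and ribosome production genes, 18 were called lower from E10.0 to E10.5 in wild type and 31 in mutants, against 4.74% and 8.4% of all genes, and none was called higher. The median log2 fold changes were -0.29 and -0.39, against -0.0086 and -0.0050 for all genes tested, and all 33 values were negative in both genotypes. Rrp12, a ribosome export factor, fell from 61.8 ± 4.75 to 44.8 ± 4.24 CPM (SD, n=3) in wild type, a log2 fold change of -0.46. Bop1 (-0.49), Grwd1 (-0.44) and Mybbp1a (-0.38), which act in ribosome assembly and nucleolar transcription, fell with it. In mutants, the RNA helicase Ddx21 fell from 441 ± 21.8 to 302 ± 15.3 CPM (SD, n=4), a change of -0.55, along with Mybbp1a (-0.55), Rrs1 (-0.54) and Gnl3 (-0.49). Nop2 and Imp4, the pair of genes with a printed E-box, changed by -0.40 and -0.29 in wild type and by -0.53 and -0.29 in mutants. All were called, that of Imp4 in mutants only with replicates 4 and 5 included.

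The count in wild type rested on single embryos. It was 3 without wild-type E10.0 replicate 2, 4 without wild-type E10.5 replicate 3, 11 without wild-type E10.0 replicate 3 and 10 without wild-type E10.5 replicate 2. In mutants it was 30 without replicates 4 and 5. CACGTG was present in the promoter windows of 7 of the 27 matched genes of this list (25.9%), against 11.9% of the matched genes among all those tested. Beside Nop2 and Imp4 these were Mybbp1a, Pes1, Wdr43, Utp20 and Grwd1, where it began after the transcription start. Pes1 (-0.06), Wdr43 (-0.16) and Utp20 (-0.20) were not called with stage in wild type, and Mybbp1a and Grwd1 were. A link of the motif with the fall was not tested.

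Of 27 genes for growth and metabolism, 12 were called lower with stage in wild type and 15 in mutants (14 without replicates 4 and 5), with medians of -0.25 and -0.31 and none called higher. Over all genes, 4.74%, 8.4% and 7.79% were called lower in these fits, with medians of -0.0086 and -0.0050 in the first 2. Slc7a5, a transporter of large neutral amino acids, fell from 69.5 ± 1.29 to 45.5 ± 4.48 CPM (SD, n=3) in wild type (-0.61), and Srm, the spermidine synthase, from 134 ± 16.6 to 88.2 ± 8.55 CPM (-0.60). The mitochondrial chaperonin Hspd1 (-0.29) and the folate enzyme Mthfd2 (-0.31) also fell. In mutants the genes with the smallest p were Hk2, a hexokinase (-0.68), Hspd1 (-0.48), Mthfd2 (-0.47) and Srm (-0.68). The wild-type count was 2 without wild-type E10.0 replicate 2 and 3 without wild-type E10.5 replicate 3. CACGTG was present in 8 of the 23 matched genes (34.8%), against 11.9% of the matched genes among all those tested. Both lists were made of genes known as MYC targets, and a link of the motif with the change in stage was not tested.

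Between genotypes at E10.0, 4 of the 33 ribosome production genes were called higher in mutants and none lower, with a median of 0.09, against 3.33% and 3.28% of all genes and a median of -0.02. Without replicates 4 and 5 there were 7 higher and 1 lower, against 6.23% and 10.2%. The 4 were Utp20 (0.50), Ddx21 (0.30) and Mphosph10 (0.31), which act in processing of ribosomal RNA, and the abundant nucleolar protein Ncl (0.28, not called without replicates 4 and 5). At E10.5 none was called (median -0.04), and the largest value was that of Grwd1 (-0.22, SE 0.111). None of the 27 growth and metabolism genes was called at either stage, where the largest values were those of Cad, an enzyme of pyrimidine synthesis (0.23, SE 0.206, and -0.01 without replicates 4 and 5), at E10.0 and the folate transporter Slc19a1 (-0.23, SE 0.106) at E10.5. Without replicates 4 and 5, 1 was higher and 1 lower at E10.0.

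Of 6 genes that MYC is known to repress, 5 were tested. Over all genes, 5.39% were called higher with stage in wild type and 10.8% in mutants (9.72% without replicates 4 and 5). Between genotypes, 3.28% of all genes were called lower at E10.0 and 2.19% higher at E10.5 (10.2% and 2.6% without replicates 4 and 5). With stage, 2 rose in wild type, the cyclin-dependent kinase inhibitors Cdkn1c (0.44) and Cdkn1a (0.43). In mutants 3 rose (2 without replicates 4 and 5), which were Cdkn1c, from 126 ± 12.95 to 223 ± 21.8 CPM (SD, n=4; 0.82), Cdkn1b (0.40) and the stress gene Gadd45a (0.34). Between genotypes, Ndrg1 (-0.48) and Cdkn1b (-0.28) were lower in mutants at E10.0 and Gadd45a (0.40) higher at E10.5, and none of these 3 was called without replicates 4 and 5.

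**Figure D4:**
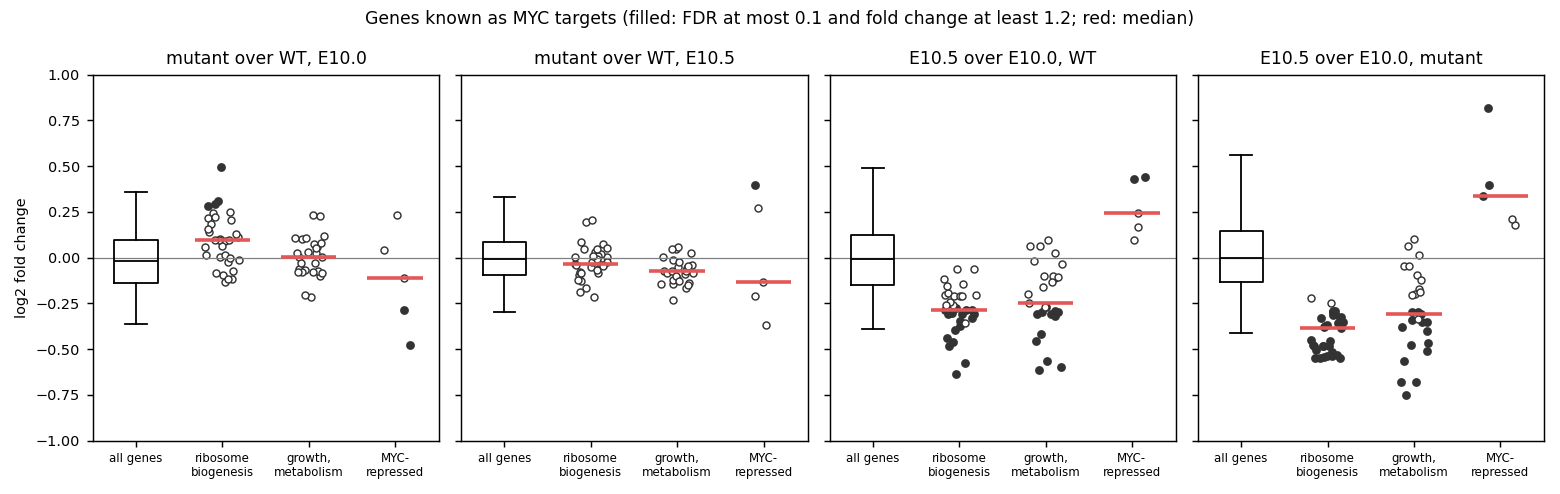
Log2 fold changes (vertical axis) of known MYC targets in the 4 comparisons, with 1 point per gene, filled where called, and a red line at the list median. The boxes at the left of each panel give the quartiles of all 12393 genes with whiskers from the 5th to the 95th percentile. The 33 ribosome production genes lie below 0 with stage in both genotypes, with medians of -0.29 and -0.39.

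Partners of the network were described in further lists. Of 12 cofactors of MYC, 2 were called lower with stage in wild type and 2 in mutants, against 4.74% and 8.4% of all genes. They were the acetyltransferase Kat2a (-0.32 and -0.30) and the helicase Ruvbl2 (-0.39 and -0.40). Kat2a was called in mutants only with replicates 4 and 5 included, and 7.79% of all genes were called lower without them. Ep400, the ATPase of the TIP60 complex, was called higher in mutants at E10.0 (0.41), as were 3.33% of all genes. It was not called without replicates 4 and 5. With all samples, none of the 12 was called at E10.5, where Trrap had the largest value (0.32, SE 0.274). Ruvbl2 at both stages (-0.34 in each) and Zbtb17 at E10.0 (-0.38) were called lower in mutants once replicates 4 and 5 were left out. The quasi-likelihood test called none of the 12 between genotypes or with stage in wild type. Of 12 genes of the SIN3 and HDAC corepressors used by MXD proteins and MNT, 2 were called higher in mutants at E10.0, against 3.33% of all genes. They were Arid4b (0.27) and Ncor1 (0.27), and neither was called without replicates 4 and 5. Arid4b, a SIN3 subunit, was also called higher with stage in wild type (0.36), as were 5.39% of all genes. None was called at E10.5 between genotypes (largest Ncor1, 0.22, SE 0.0727) or with stage in mutants (largest Arid4b, 0.18, SE 0.0884). When replicates 4 and 5 were left out, Arid4b rose with stage in mutants (0.30), where 9.72% of all genes were called higher. Brms1, another SIN3 complex gene, was then called lower in mutants at E10.0 (-0.27), as were 10.2% of all genes.

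Of 10 partners of MGA in its Polycomb complex, Tfdp2 rose with stage in wild type (0.27) and Yaf2 fell in mutants (-0.27). Over all genes, 5.39% and 8.4% were called in these directions. None was called between genotypes, where Ring1 at E10.0 (-0.23, SE 0.122) and Yaf2 at E10.5 (-0.23, SE 0.0787) had the largest values. Without replicates 4 and 5, Ring1 was -0.38 and called lower, as were 10.2% of all genes at E10.0. Yaf2 at E10.5 was then -0.12. Of 14 genes for the turnover and phosphorylation of MYC proteins, the deubiquitinase Usp36 (-0.30 and -0.34) fell with stage in both genotypes. Ppp2r5a, a phosphatase subunit, fell in mutants (-0.31). Called lower with stage were 4.74% of all genes in wild type and 8.4% in mutants. Pim1, a kinase, was called higher in mutants at E10.0 (0.28), as were 3.33% of all genes. Without replicates 4 and 5, Pim1 was still called (0.27), as were 6.23% of all genes. The ubiquitin ligase Stub1 (-0.50) and the kinase Plk1 (-0.43) were then called lower, as were 10.2% of all genes. With all samples, Pim1 had the largest value of the list at E10.5 (0.21, SE 0.0614), where it was not called. The 3 genes of the parallel MLX arm, Mlx, Mlxip and Mlxipl, were called in no comparison. The largest values were those of Mlxipl, which had 1.53 to 2.05 CPM as group means (-0.06 and 0.16 with genotype, 0.20 and 0.42 with stage).

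The genes whose levels followed those of Mycn and Myc most closely were ranked by Spearman correlation over the 14 samples, which is a description, since all genes share the libraries and the change with stage. For Mycn these were Cd151, Cd320, Rcl1 and Wasf1, each with a rho of 0.978. For Myc, 5 genes tied at a rho of 0.965, which were Emg1, Fam195a, Lhpp, Pabpc4 and Phb2.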

How the data were processed

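RNA-seq was performed on 14 forelimb bud pairs. The authors aligned single-end reads to mm9 with TopHat2 (2.0.13), counted uniquely mapped reads per gene with HTSeq, ignoring strand, and deposited raw counts, which were used as deposited. The members and lists were chosen with earlier results of these data known.

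The 1041 symbols of chromosomes X, Y and M were removed. Testing covered 12393 genes that reached 1 CPM in 3 or more samples. Following the study's methods, libraries were TMM-normalized (factors 0.934 to 1.04), tag-wise dispersions had a prior of 10 degrees of freedom, and pairs of groups were tested by the exact test of edgeR (edgeR 4.0.16, R 4.3.3), with Benjamini-Hochberg adjustment. Estimating dispersions over all 14 samples was a choice made here. The interaction used edgeR's quasi-likelihood test. Fold changes are mutant over wild type or E10.5 over E10.0. Standard errors come from replicate variances of log2(CPM + 0.25). RPKM is normalized CPM per kilobase of exon union (GENCODE vM1), while the counts used refGene models. The scripts were tested on simulated data.

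All 10 members were named, and from each list the up to 4 DEGs with the smallest p per comparison, or the gene with the largest change where none was a DEG, plus the 4 genes most alike Myc and Mycn, with ties. Not every gene that meets this rule is reported here. Nop2 and Imp4 were added for their promoters, after their values were seen, as were Ruvbl2 between genotypes, Zbtb17, Brms1, Stub1 and Plk1. Alternatives were the quasi-likelihood test, DESeq2 (1.42.0), other normalizations, filters, thresholds and samples.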

Additional observations from a re-analysis of the deposited data

How the results depend on the processing

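Beside the calls given above, the 2 members called lower in mutants at E10.0 became 1 with the quasi-likelihood test, without Rn45s in the library sizes, with no filter on low counts, with 2 groups in the fit and at an FDR of 0.05. The number called higher became 1 with upper-quartile factors, without Rn45s, with 2 groups in the fit and without mutant replicates 4 and 5 (Mga in each). At E10.5, the number called lower became 0 without replicates 4 and 5 under the quasi-likelihood test. With 1 sample left out, members called at E10.0 ranged from 1 to 2 lower and 0 to 1 higher, and those called with stage in wild type from 1 to 2 lower and 0 to 1 higher. The wild-type stage counts ranged from 3 to 20 for ribosome production genes and from 2 to 12 for growth genes.

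Among the 10 genes, signs turned only in changes that were never called. The largest of these with all samples was that of Myc at E10.5 (0.13). Mxd1 at E10.0 (-0.001) was 0.0174 with DESeq2, 0.0179 with RLE factors, 0.0055 with upper-quartile factors, 0.0191 without Rn45s, 0.0192 with no filter and 0.0091 with 2 groups in the fit, and ranged from -0.059 to 0.043 with 1 sample left out. Without replicates 4 and 5, under both tests, Myc at E10.5 was -0.0344 and Mnt with stage in mutants 0.134, and the interaction of Mxi1 was 0.0324. With 1 sample left out, Mxd4 at E10.5 ranged from -0.079 to 0.051, Mga with stage in wild type from -0.106 to 0.18, Mnt with stage in mutants from -0.144 to 0.062, and the interactions of Myc from -0.172 to 0.029 and of Mxi1 from -0.044 to 0.030. The cause was not tested.

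Same-numbered wild-type and mutant samples had correlations of 0.152, -0.153, -0.234 and -0.0949 in their deviations from group means. Other pairs ranged from -0.265 to 0.321. With groups of 3 or 4 samples, these values cannot decide whether replicate numbers pair the samples. With the replicate block, 1 member was higher and 3 were lower at E10.0, all genes called were 1961 at the early and 280 at the late stage, and the interaction of Mxi1 was 0.0015.

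Over all genes, 819 were called at E10.0 (413 higher, 406 lower; 519 and 313 without Rn45s, 512 and 336 with RLE factors), and 2018 without replicates 4 and 5, 1895 with the quasi-likelihood test as well, and 506 at an FDR of 0.05. At E10.5, 462 were called, and 265 without replicates 4 and 5 under the quasi-likelihood test. With stage in wild type, 1256 were called (668 higher, 588 lower; 789 and 426 with upper-quartile factors), and 1932 with 2 groups in the fit. The interaction called 23, and 87 with DESeq2, 39 with no filter, 6 without replicates 4 and 5 and 9 at an FDR of 0.05. With 1 sample left out, all genes called fell to 254 at E10.0, 286 at E10.5, 484 with stage in wild type and 7 in the interaction. No normalization moved the median of all genes by more than 0.0273 (log2). Mxd3 had the fewest reads of the members, 186 to 329 a sample.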
